A study of Homo sapiens with 8 samples.

Results

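The integrin and laminin subunits are 32 genes, 22 for integrins and 10 for laminins, chosen by name from the 22439 genes that could be named on the arrays. The rule that picks them uses no measured value. They comprise 14 integrin α subunits (*ITGA1* to *ITGA11*, *ITGA2B*, *ITGAV* and *ITGAE*), 8 β subunits (*ITGB1* to *ITGB8*), 5 laminin α chains, 3 β chains and 2 γ chains (*LAMC1* and *LAMC3*). The arrays are 8 Agilent 2-color expression arrays on 1 slide, each hybridized with Cy5-labeled treated RNA and Cy3-labeled control RNA of the same human lung cancer cell line. Cells transfected with *miR-150-3p* by Lipofectamine RNAiMAX were on 1 array each for EBC-1 and SK-MES-1, both lung squamous cell carcinoma (LUSQ) lines. SBC-3, derived from small cell lung cancer, was on 3 arrays with the siRNAs siDONSON-1, siDONSON-2 and siDONSON-3 against *DONSON*, and A549 lung adenocarcinoma cells with *LOXL2* edited by CRISPR/Cas9 were on 3 arrays. The labels call the transfection controls both mock and untransfected, and the A549 control unedited. They do not say whether the 3 edited A549 samples were separate clones, whether the SBC-3 samples were separate cultures, or whether the controls of a line were 1 RNA, so p-values measure only the spread between these arrays, which may be technical. No dye swap was made, so a gene-specific dye effect and the treatment cannot be told apart on a single array.

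Integrins are receptors made of an α and a β subunit that span the cell membrane and link the extracellular matrix to the cytoskeleton. Laminins are basement membrane proteins made of an α, a β and a γ chain, and several integrins bind them. In squamous and other stratified epithelia, the laminin that holds the α3 and β3 chains is bound by integrin α6β4 in hemidesmosomes, which anchor the basal cells, and by integrin α3β1.

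The sequences before the start sites of 4 members on which the results turn are shown first. *LAMB3* and *LAMA3* encode chains of the same laminin and had far lower control levels in SBC-3 than in the LUSQ lines. *ITGA6* passed the limma test (adjusted p below 0.05) in both the siDONSON and the *LOXL2*-edited groups, in opposite directions, and *LAMC1* passed it in the siDONSON group. Each run holds the 250 bases before a RefSeq start site (GRCh38.p14), read 5′ to 3′ on the gene's strand, with matches to the AP-1 motif TGANTCA and the GC box GGGCGG in capitals on either strand. *LAMB3* has 3 start sites in the table and *ITGA6* has 2, of which 1 each is shown. The *LAMB3* run lies at chr1:209651375-209651624 (minus strand), the *LAMA3* run at chr18:23872770-23873019 (plus), the *ITGA6* run at chr2:172427336-172427585 (plus) and the *LAMC1* run at chr1:183023170-183023419 (plus).
LAMB3: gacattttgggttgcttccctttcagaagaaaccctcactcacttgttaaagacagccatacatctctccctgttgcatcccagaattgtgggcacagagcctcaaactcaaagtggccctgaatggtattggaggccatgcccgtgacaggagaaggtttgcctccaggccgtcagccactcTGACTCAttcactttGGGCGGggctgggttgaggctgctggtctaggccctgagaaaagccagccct
LAMA3: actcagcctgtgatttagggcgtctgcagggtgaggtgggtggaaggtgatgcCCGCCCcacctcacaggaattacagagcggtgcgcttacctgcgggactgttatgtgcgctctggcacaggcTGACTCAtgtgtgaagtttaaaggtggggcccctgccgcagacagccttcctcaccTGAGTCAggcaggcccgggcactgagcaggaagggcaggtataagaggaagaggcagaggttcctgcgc
ITGA6: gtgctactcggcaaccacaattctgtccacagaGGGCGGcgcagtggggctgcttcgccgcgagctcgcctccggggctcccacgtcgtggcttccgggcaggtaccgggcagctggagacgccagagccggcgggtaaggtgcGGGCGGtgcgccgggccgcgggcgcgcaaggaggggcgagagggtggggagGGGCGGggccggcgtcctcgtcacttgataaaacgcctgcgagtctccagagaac
LAMC1: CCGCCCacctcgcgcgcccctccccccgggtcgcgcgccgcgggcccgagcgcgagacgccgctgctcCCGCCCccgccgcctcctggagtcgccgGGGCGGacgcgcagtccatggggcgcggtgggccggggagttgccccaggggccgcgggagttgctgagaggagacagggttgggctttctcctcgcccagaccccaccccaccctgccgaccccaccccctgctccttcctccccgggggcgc

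The AP-1 motif, the binding sequence of FOS and JUN proteins, was found 67 bases before the *LAMB3* start shown and 125 and 69 bases before the *LAMA3* start. The *ITGA6* and *LAMC1* runs held 0 matches to it and 3 matches each to the GC box. The other 2 *LAMB3* starts in the table held 0 matches. Of 31 start sites of 24 members in the table, 2 held the AP-1 motif, against 2308 of 35116 start sites of all genes (6.57%). The GC box was found at 16 of the 31 and at 42.6% of all start sites. A match describes the letters of the window and shows no binding.

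The members had 43 probes, with 1 probe for 25 members and several for 7. Probes were counted on each array where the signal passed background clearly in the red or the green channel, and counted probes of a gene were averaged. Under this rule, 22 to 29 members were counted per array, 20 of them on all 8 arrays and 11 on some, whereas *ITGA8*, the α8 subunit, was counted on 0 arrays. Of all spots on an array, 41.1% to 46.4% were well above background in green and 48.5% to 56.2% in red. The targeted genes were lower in their own groups, *DONSON* by a mean log2 ratio of -2.02 ± 0.20 (SD, n = 3) and *LOXL2* by -2.58 ± 0.09 (SD, n = 3). Of 6 squamous markers, only *SOX2* was well above background in EBC-1 control cells, and *KRT5*, *KRT6A* and *DSG3* were not in any line. *TP63*, *KRT14* and *SOX2* were above background in both SK-MES-1 and SBC-3, and *TP63* and *SOX2* in A549. The summed level of the 6 was highest in SBC-3 (5.85 to 5.87), against -0.18 in EBC-1, -0.13 in SK-MES-1 and 1.051 to 1.115 in A549. In A549 the adenocarcinoma markers *NAPSA*, *KRT7* and *KRT8* were above background and *NKX2-1* was not, but these 3 were also above background in both LUSQ lines. In SBC-3, 4 of 5 neuroendocrine markers were above background, without *INSM1*. Of these, *CHGA* and *DLL3* had higher control levels in A549 than in SBC-3, and the summed level of the 5 was 2.86 to 2.93 in A549 against 1.82 to 1.90 in SBC-3. As the RNA came from whole cultures, fewer cells of a type and less RNA per cell cannot be told apart.

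Control levels of the members differed widely between the cell lines. They were taken from the green channel, as log2 values relative to the 75th percentile of each array, and are compared between lines for the same gene only. Of 31 members above background in the green channel of at least 1 array, 19 differed at least 4-fold between the highest and the lowest line, whereas 31.4% of 16429 named genes did so. With normexp, a background correction that adds an offset of 50 to every intensity, 9 members did so against 9.1% of all genes. A range of at least 16-fold was reached by 7 members, and with normexp by 2. In 6 of the 19 the lowest line was above background for every probe on every array, and *ITGA6* and *ITGB3* had a probe that was so on 1 of 3 arrays only. In the other 11, 8 had no probe above background in the lowest line and 3 had some. In these 11, a probe not well above background on any array of the line was raised to each array's lowest signal above background. A dim signal already higher than that was kept, as for *ITGA11* in SBC-3 (-2.91 and -2.88). Their folds are therefore taken as lower bounds, under this background treatment only. SK-MES-1 was the highest line for 11 of the 19, and SBC-3 or A549 the lowest for 17 (9 and 8). For *ITGA1*, *ITGA2*, *ITGB8* and *LAMA2* no probe was above background in SBC-3 or in A549. For *LAMA4* none was in SBC-3 and only some were in A549, and for *ITGB6* none was outside EBC-1. Which line is named lowest for these genes depends on the lowest signal above background of each array, so it does not rank those lines. *LAMA4* only just reached the limit (4.01-fold, 2.005 log2 units). Its range was 0.37 log2 units with the brightest probe alone and 0.39 with normexp. The 2 LUSQ lines had 1 array each, and the 3 controls of SBC-3 or A549 may be 1 RNA, so no test was made between lines. Between the control channels of the same line, the SD was at most 0.26 for the 22 member probes above background on all 3 SBC-3 arrays, and at most 0.16 for the 25 such probes in A549.

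**Figure D1:**
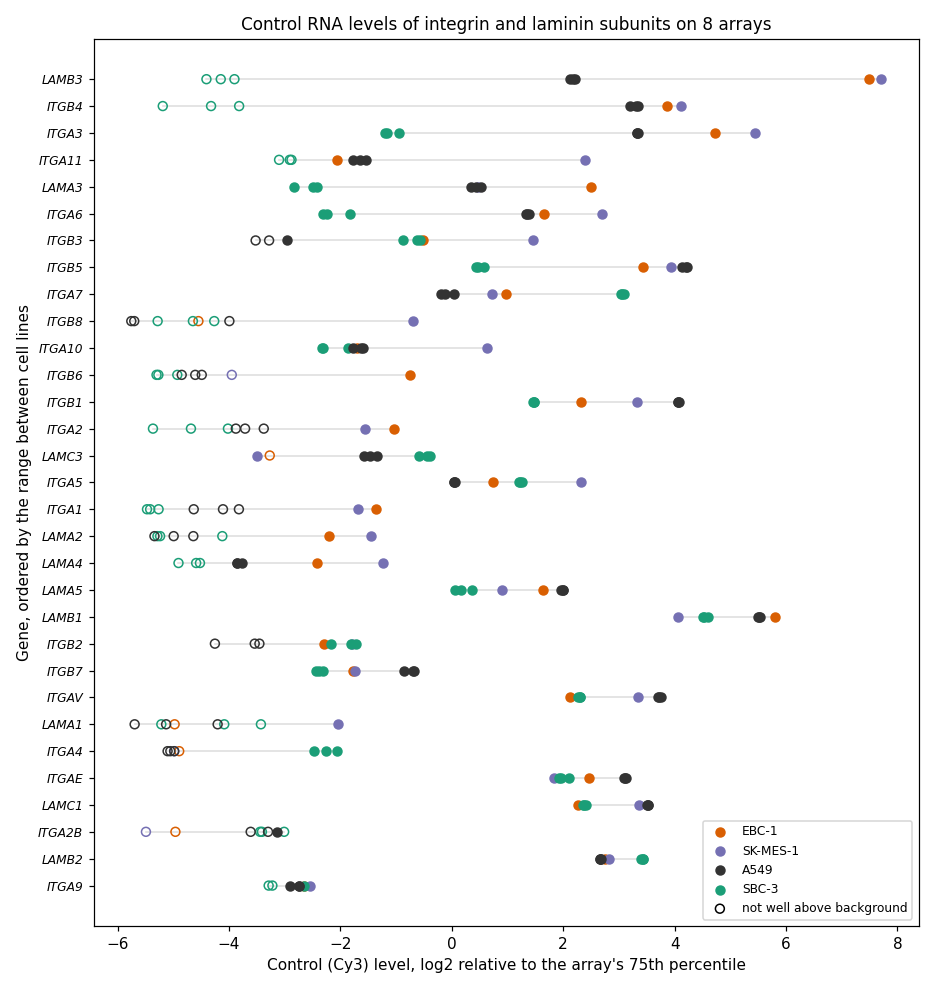
Control (Cy3) levels of 31 members, in log2 units relative to the 75th percentile of the array (horizontal axis), with genes ordered by the range between lines, widest at the top. Each point is 1 of 8 arrays, colored by cell line, and open points were not well above background. The 3 open *LAMB3* points of SBC-3 lie between -4.41 and -3.90, and both LUSQ points lie above 7.

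The subunits of laminin-binding integrin α6β4 and of its laminin were among those with the widest ranges. *LAMB3*, the laminin β3 chain, had control levels of 7.71 in SK-MES-1 and 7.50 in EBC-1. It was 2.12, 2.18 and 2.21 on the A549 arrays and was not well above background on any of the 3 SBC-3 arrays. Its order was therefore both LUSQ lines, then A549, then SBC-3, with no overlap, and SK-MES-1 was at least 1660-fold above SBC-3. With normexp the range was 7.27 log2 units, against 10.7.

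*LAMA3*, the laminin α3 chain of the same trimer, had levels of 2.51 (EBC-1), 0.48 (SK-MES-1), 0.43, 0.52 and 0.35 (A549), and -2.50, -2.41 and -2.83 (SBC-3). SK-MES-1 lay within the range of the A549 arrays, and EBC-1 stood above both. In SBC-3 only 1 of its 2 probes was above background, and EBC-1 was at least 31.7-fold above SBC-3. With normexp the range was 2.333 log2 units, against 4.985. The 2 probes stood for different transcript records and kept the same order of EBC-1 over SBC-3 (5.05 against -1.87 to -2.14 for the brighter probe).

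*ITGB4*, the β4 subunit of hemidesmosomes, had control levels of 4.11 in SK-MES-1, 3.86 in EBC-1 and 3.31, 3.34 and 3.20 in A549. It was not well above background on any SBC-3 array, and SK-MES-1 was at least 138-fold above SBC-3. Its partner *ITGA6*, the α6 subunit, had 1.65 in EBC-1, 2.71 in SK-MES-1, 1.33, 1.39 and 1.35 in A549, and -1.82, -2.24 and -2.32 in SBC-3. SBC-3 was the lowest line for both subunits, and for *ITGA6* the range was 28.4-fold. With normexp the ranges were 3.81 log2 units for *ITGB4* and 2.32 for *ITGA6*, against 7.11 and 4.83. One of the 2 *ITGA6* probes was above background in the green channel on 1 of the 3 SBC-3 arrays.

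*ITGA3*, the α3 subunit that pairs with β1 to bind laminin, had levels of 4.72 in EBC-1, 5.44 in SK-MES-1, 3.32, 3.32 and 3.35 in A549, and -1.20, -0.96 and -1.16 in SBC-3. All arrays were above background, the lines did not overlap, and the range was 93.2-fold. With normexp the range was 4.57 log2 units, against 6.54. *ITGB1*, the β1 subunit shared by many integrins, varied less, with 2.32 in EBC-1, 3.33 in SK-MES-1, 1.46 to 1.47 in SBC-3 and 4.06 to 4.08 in A549. Its order differed from that of *ITGA3*, since A549 was the highest line and stood 6.08-fold above SBC-3.

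A pair of subunits of other receptors, *ITGA11* and *ITGB3*, also passed a 16-fold range. With normexp their ranges were 2.19 and 1.65 log2 units, against 5.31 and 4.71. *ITGA11*, the α11 subunit of a collagen receptor, had a level of 2.39 in SK-MES-1, -2.06 in EBC-1 and -1.64, -1.78 and -1.54 in A549, and was not well above background in SBC-3. SK-MES-1 was at least 39.6-fold above SBC-3. *ITGB3*, the β3 subunit that pairs with αV to bind vitronectin and other ligands with an RGD sequence, had 1.45 in SK-MES-1, -0.52 in EBC-1 and -0.56, -0.63 and -0.88 in SBC-3. In A549 it was above background on 1 of 3 arrays only (-2.96), so the size of the fold between these lines is uncertain.

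Some members were highest in SBC-3. *ITGA7*, another laminin-binding α subunit, was highest in SBC-3 (3.05, 3.03 and 3.09), against 0.98 in EBC-1, 0.72 in SK-MES-1 and -0.11, 0.04 and -0.19 in A549. SBC-3 was thus 8.86-fold above A549 for *ITGA7*, and *LAMC3*, a laminin γ chain, was the other member with at least a 4-fold range and its highest level in SBC-3 (at least 5.15-fold above SK-MES-1). *LAMB2* and *LAMC1*, broadly expressed β2 and γ1 chains, ranged only 1.69-fold and 2.39-fold. Taking lines in pairs, 10 members were at least 4-fold higher in SK-MES-1 than in SBC-3 and 2 were lower, and 16.1% of all genes differed as much between these lines in either direction. Between SK-MES-1 and A549, 9 members were higher and 0 were lower, against 9.93% of all genes. For EBC-1, 7 were higher and 2 lower than in SBC-3 (15.6%), and 6 were higher and 0 lower than in A549 (11.5%). Between EBC-1 and SK-MES-1, 2 were higher and 3 lower (9.57%), and between SBC-3 and A549, 2 were higher and 7 lower (13.7%). The shares of all genes count both directions.

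After *miR-150-3p* transfection, 0 of 26 members tested were called at an adjusted p below 0.05, against 2.59% of 14229 genes. The test was limma, which compared the mean log2 ratio of treated over control of EBC-1 and SK-MES-1 with 0 in a fit of all 8 arrays. At an unadjusted p below 0.05, 12 members passed, 2 lower and 10 higher, against 28.2% of all genes. The members' median log2 ratio was 0.24 and that of all genes 0.04, and 6 of the 26 members were below 0 (23.1%) against 46.1% of all genes. The median was 0.24 for 17 integrin subunits and 0.38 for 9 laminin chains. With EBC-1 alone in the group, 4 of 27 members were called (*ITGB2*, *LAMA5*, *LAMB2* and *LAMC1*, all higher), against 16.9% of all genes, and with SK-MES-1 alone 0 of 28 were, against 0.00618%. In these fits the spread comes from the siDONSON and *LOXL2*-edited arrays, and the lone array is assumed to vary as they do. Of 3 squamous markers tested in the fit of both lines, *KRT14* rose (1.45 ± 0.46, SD, n = 2), with a control not above background in EBC-1. *TP63* (0.31) and *SOX2* (0.20) were not called. *DLL3* fell (-0.65 ± 0.15, SD, n = 2), and the part of these genes in the members' values was not tested.

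**Figure D2:**
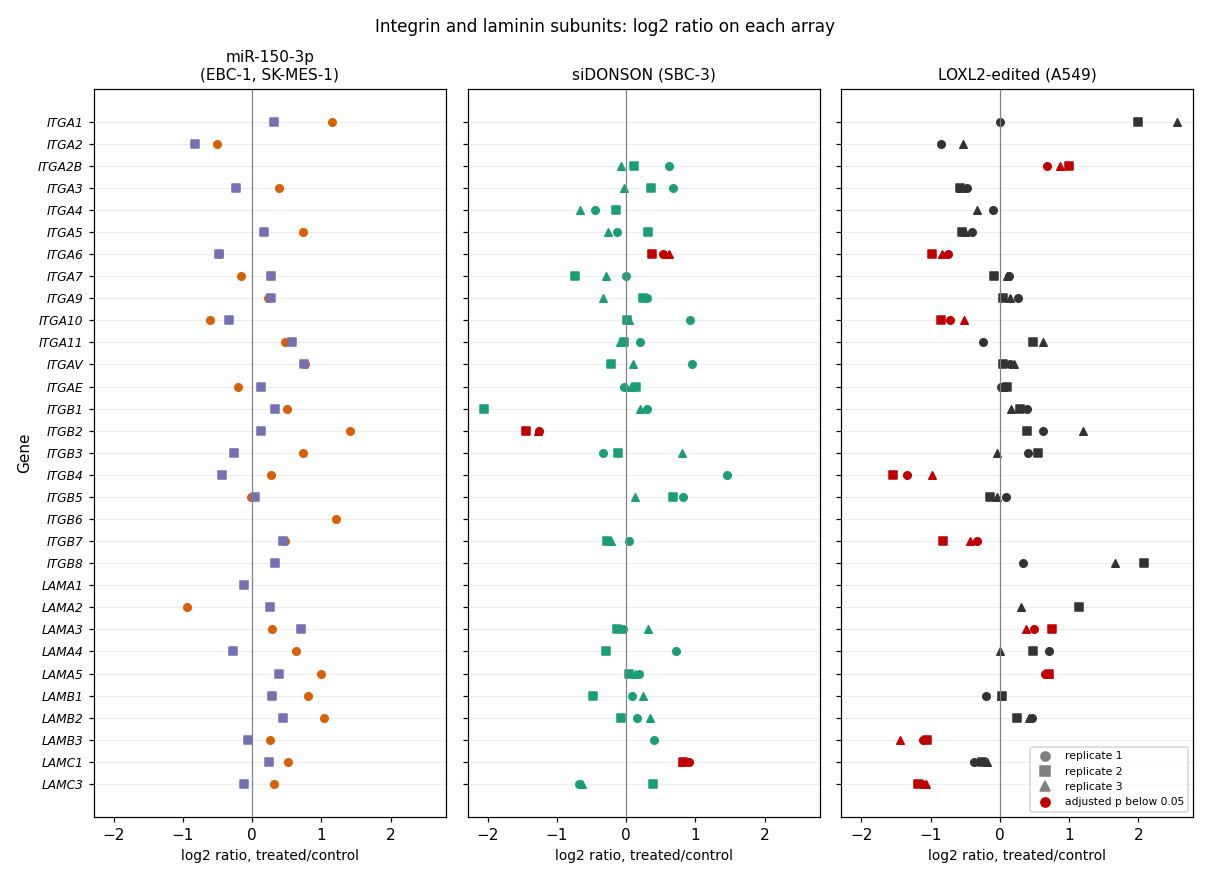
Log2 ratios of treated over control for each member on each array (horizontal axis), in the *miR-150-3p*, siDONSON and *LOXL2*-edited groups. In the left panel the circle is EBC-1 and the square is SK-MES-1, in the others the symbols are replicates 1 to 3, and red symbols mark an adjusted p below 0.05, which 0 members had in the *miR-150-3p* group, 3 in the siDONSON group and 9 in the *LOXL2*-edited group.

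On the EBC-1 array, 4 of 27 members had a log2 ratio of at least 1 (5.96% of all genes there) and 0 had one of -1 or below (6.04%). With normexp and loess, 0 members reached 1 there. On the SK-MES-1 array, 0 of 28 members were at either limit, which 2.57% of all genes reached upwards and 1.27% downwards. *ITGB2*, the β2 subunit of leukocyte integrins, had 1.41 in EBC-1 against 0.12 in SK-MES-1. *ITGB6*, the β6 subunit of an epithelial receptor that activates TGF-β, had 1.21 in EBC-1 but was not well above background in SK-MES-1. *ITGA1*, the α1 subunit of a collagen and laminin receptor, had 1.16 in EBC-1 against 0.31 in SK-MES-1. All these 3 were higher in EBC-1, and the SK-MES-1 values of *ITGB2* and *ITGA1* did not exceed the 95% limits of the scanner software's error, which covers the technical noise within an array.

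*LAMB2*, the β2 chain, had a log2 ratio of 1.04 in EBC-1 against 0.45 in SK-MES-1, with a mean of 0.75 ± 0.17 (SE) and an adjusted p of 0.0584 in limma. *LAMA5*, the α5 chain, had 0.99 and 0.39 (adjusted p = 0.0542). *ITGA6* was lower to the same extent in both lines, with -0.48 on either array (mean -0.48 ± 0.11 (SE), adjusted p = 0.0640). These were the 3 smallest adjusted p-values among the members. Both probes of *ITGA6* were below 0 on both arrays, with values of -0.55 to -0.41.

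Of 26 members counted on both arrays, 13 were above 0 on both, 3 were below 0 on both and 10 had opposite signs. Past the 95% limits of the software's error on both arrays, 2 were higher, *LAMB2* and *ITGAV*, and 2 were lower, *ITGA6* and *ITGA2*. *ITGAV*, the αV subunit, had 0.77 in EBC-1 against 0.75 in SK-MES-1 (adjusted p = 0.104). *ITGA2*, the α2 subunit of a collagen receptor, had -0.51 and -0.83 (adjusted p = 0.0956). Both differed less between the lines than *LAMB2* did.

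**Figure D3:**
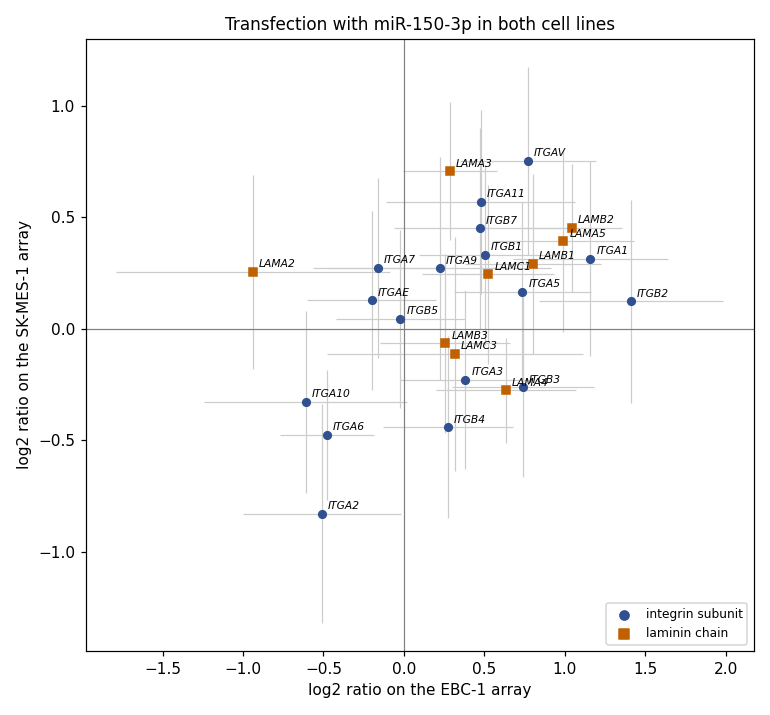
Log2 ratios after *miR-150-3p* transfection in EBC-1 (horizontal axis) and SK-MES-1 (vertical axis) for 26 members counted on both arrays. Circles are integrin subunits, squares are laminin chains, and gray bars are the 95% limits of the scanner software's error. *ITGAV*, *LAMB2* and *LAMA5* lie at the upper right, and *ITGA6*, *ITGA2* and *ITGA10* are the 3 members below 0 on both arrays.

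In SBC-3 cells with siRNAs against *DONSON*, 3 of 22 members tested passed the adjusted threshold (5.54% of 14453 genes). One member was lower (2.54% of all genes) and 2 were higher (3% of all genes). The members' median log2 ratio was 0.07 and that of all genes 0.03. *LAMC1*, the γ1 chain shared by most laminins, had 0.90, 0.83 and 0.81 with siDONSON-1, siDONSON-2 and siDONSON-3. The 3 arrays lay close together above 0, and the mean was 0.85 ± 0.05 (SD, n = 3), a 1.8-fold rise with an adjusted p of 0.0121 in limma. Without siDONSON-3 its adjusted p was 0.0551.

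*ITGB2* had -1.25, -1.45 and -1.27 on the siDONSON arrays. All were below 0, with a mean of -1.32 ± 0.11 (SD, n = 3) and an adjusted p of 0.0306. The gene was dim, with control levels of -2.17 to -1.72, and with normexp and loess together its mean was -0.15 (adjusted p = 0.124). Leaving out any 1 array also ended the call (adjusted p 0.0740 to 0.108). As *ITGB2* is a leukocyte gene, leukocyte markers were looked at: *PTPRC* and *CD3E* were above background in SBC-3 control RNA, *CD14* was not, and the summed level of these 3 was -0.97 to -0.80. The 2 leukocyte markers tested had log2 ratios of 0.38 and 0.80 and neither passed, and their part in the *ITGB2* value was not tested.

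*ITGA6* had 0.54, 0.38 and 0.62 on the siDONSON arrays. It was above 0 on all of them, with a mean of 0.51 ± 0.12 (SD, n = 3) and an adjusted p of 0.0298. The rise was 1.43-fold, but 1 of its probes was not above background in the control on 2 of the 3 arrays. With both channels required above background the mean was 0.34 (adjusted p = 0.0745), and with normexp and loess it was 0.08 (adjusted p = 0.231). Without siDONSON-1 or siDONSON-3 its adjusted p was 0.0832 or 0.110.

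*ITGB1* stood out on a single array, which was singled out after its values were seen. It had 0.30 with siDONSON-1 and 0.20 with siDONSON-3, but -2.06 with siDONSON-2. On the siDONSON-2 array, 59 of 15123 genes were as low (0.39%), and the 95% limits of the software's error were ± 0.55 around the *ITGB1* value. The control channel was the same on the 3 arrays (1.46 to 1.47), so the difference lay in the treated channel. On the 5 arrays of the other groups *ITGB1* had 0.16 to 0.50. The siDONSON mean was -0.52 with an adjusted p of 0.469, and with 1 array per siRNA the difference between siRNAs has no replicate check.

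In A549 cells with *LOXL2* edited, 9 of 26 members tested passed the adjusted threshold, against 13.2% of 15531 genes. Of these, 6 were lower (6.27% of all genes) and 3 were higher (6.92% of all genes). The members' median log2 ratio was 0.09 and that of all genes 0.02. The lower members included the β4 and α6 subunits and the β3 laminin chain, and the higher members included the α3 and α5 laminin chains. *LAMB3* had -1.11, -1.05 and -1.45. All arrays were more than 1 log2 unit below the control, with a mean of -1.21 ± 0.21 (SD, n = 3), a 2.31-fold decrease with an adjusted p of 0.00704.

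*ITGB4* had -1.35, -1.55 and -0.98 on the 3 edited A549 arrays. Its mean was -1.29 ± 0.29 (SD, n = 3) with an adjusted p of 0.0137, a 2.45-fold decrease. For *LAMB3* and *ITGB4* the fit used 1 of the 3 SBC-3 arrays, since the other two were not above background, which left 3 residual degrees of freedom. *ITGA6* had -0.75, -0.99 and -0.83, with both probes below -0.6 on every array. Its mean was -0.86 ± 0.12 (SD, n = 3) with an adjusted p of 0.00313, the smallest among the members, a 1.81-fold decrease.

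Against the mean of the other 2 groups in place of 0, *ITGA6* was lower in the *LOXL2*-edited group (-0.87, adjusted p = 0.0164). In the siDONSON group it was higher (1.18, adjusted p = 0.0108). Each of these references holds the values of the other group, so the 2 fits are no independent check. *ITGA6* was also lower on both *miR-150-3p* arrays (-0.48 on either). It was the member that passed in 2 groups, in opposite directions. *ITGA3*, which pairs with β1, had -0.47, -0.57 and -0.56 in edited A549. Its mean was -0.53 with an adjusted p of 0.0687, so it did not pass.

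*LAMC3*, the γ3 chain, had -1.12, -1.19 and -1.06 over its 2 counted probes, with a mean of -1.12 ± 0.06 (SD, n = 3) and an adjusted p of 0.0155. Another probe was not above background on these arrays, and with that probe included the mean was -0.54 (adjusted p = 0.110). With normexp and loess the mean was -0.30 (adjusted p = 0.00627). *ITGA10*, the α10 subunit of a collagen receptor, had -0.72, -0.85 and -0.51 (mean -0.70 ± 0.17, SD, n = 3, adjusted p = 0.0477), and with normexp and loess its mean was -0.13 (adjusted p = 0.0560). *ITGB7*, which pairs with α4 or αE, had -0.34, -0.82 and -0.43 (mean -0.53 ± 0.26, SD, n = 3, adjusted p = 0.0302). The first of these *ITGB7* values did not exceed its limits of technical error, and with normexp and loess the mean was -0.18 (adjusted p = 0.0406).

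*LAMA5* had 0.66, 0.71 and 0.70 in edited A549, a mean of 0.69 ± 0.03 (SD, n = 3) with an adjusted p of 0.0136. It was above 0 on all 8 arrays, and against the mean of the other 2 groups it was 0.28 higher with an adjusted p of 0.328. *LAMA3* had 0.49, 0.76 and 0.38 (mean 0.54 ± 0.20, SD, n = 3, adjusted p = 0.0398), and against the other 2 groups 0.27 (adjusted p = 0.408). On the siDONSON arrays, from another line, *LAMA5* had 0.18, 0.04 and 0.13 and *LAMA3* had -0.05, -0.13 and 0.32. The *miR-150-3p* arrays gave *LAMA3* values of 0.28 (EBC-1) and 0.71 (SK-MES-1). Their mean was 0.50, against 0.54 for edited A549, and for *LAMA5* the *miR-150-3p* mean was 0.69. In edited A549 the *LAMA3* mean was above 0 and that of *LAMB3*, the chain it joins in a trimer, was below 0. Without a dye swap, the part of a dye effect in the *LAMA3* and *LAMA5* values was not tested.

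*ITGA2B*, the platelet αIIb subunit, had 0.687, 0.997 and 0.874 in edited A549, with a mean of 0.85 ± 0.16 (SD, n = 3) and an adjusted p of 0.0178. It was well above background in the control on 1 of the 3 arrays only, and with normexp and loess the mean was 0.12 (adjusted p = 0.0539). *ITGA1* had -0.01, 1.99 and 2.57 and did not pass (adjusted p = 0.111). Its control was not well above background on any A549 array. *ITGB8*, a β subunit that pairs with αV, had 0.34, 2.09 and 1.66 and did not pass either (adjusted p = 0.0835), with the control likewise below that limit.

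Without edited replicate 1, 2 or 3, the number of members called was 4, 2 and 2. *LAMB3* and *ITGA6* were called in each of these fits, with adjusted p-values of 0.0429 to 0.0448 and 0.0236 to 0.0381, and *ITGB4* had 0.0501 to 0.0840. None of the other 6 called members was called in any of these fits, and their adjusted p-values were 0.0700 to 0.224. The further calls without replicate 1 were thus of members that did not pass with all 3 replicates. The adenocarcinoma markers *NAPSA* and *KRT8* also changed in the edited cells, by 0.999 ± 0.05 and -0.53 ± 0.07 (SD, n = 3). *NAPSA* was dim, with a control level of -2.28 in A549. Of the 6 adenocarcinoma markers, 4 were tested, and their summed control level in A549 was 9.26 to 9.36. Their part in the members' values was not tested.

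Genes that work with these receptors were taken from 4 lists of adhesion genes. In edited A549, 3 of 24 adaptors and kinases were lower and 0 were higher. Of 7 hemidesmosome components and tetraspanins tested, 1 was lower. Of 8 other basement membrane proteins, 1 was lower and 1 was higher, and of 11 other integrin ligands 2 were lower and 2 were higher. These counts stand beside 13.2% of all genes.

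Among the ligands, *FN1* (fibronectin, bound by α5β1) fell by 1.70 ± 0.44 and *NID1* (nidogen, which joins laminin to collagen IV) fell by 1.89 ± 0.94 on the log2 scale (SD, n = 3). Their adjusted p-values were 0.00792 and 0.0146, and the 3 *NID1* arrays ranged widely, from -2.85 to -0.97. *VTN* (vitronectin, bound by αV integrins) rose by 2.06 ± 0.18, *CDH1* (E-cadherin, bound by αEβ7) by 1.36 ± 0.35 and *AGRN* (agrin, a basement membrane proteoglycan) by 0.63 ± 0.08. The adjusted p-values of these 3 were 0.0150, 0.0150 and 0.0194. *AGRN* was also above 0 on the other arrays, at 0.50 to 0.94 after *miR-150-3p* and 0.06 to 0.46 with siDONSON. The part of a dye effect in the *AGRN* values was not tested. *CD9*, a tetraspanin that associates with integrins, fell by 0.71 ± 0.04. *SHARPIN*, an inhibitor of β1 integrin activation, fell by 0.68 ± 0.08, and *PTK2*, the focal adhesion kinase, fell by 0.60 ± 0.12. Their adjusted p-values were 0.0109, 0.00682 and 0.0144. The fits of *VTN* and *CD9* left 3 residual degrees of freedom, and that of *CDH1* left 2. Outside the rule for named genes, the list genes *ITGB1BP1* (-0.52) and *TGFB1* (-0.41) also fell.

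**Figure D4:**
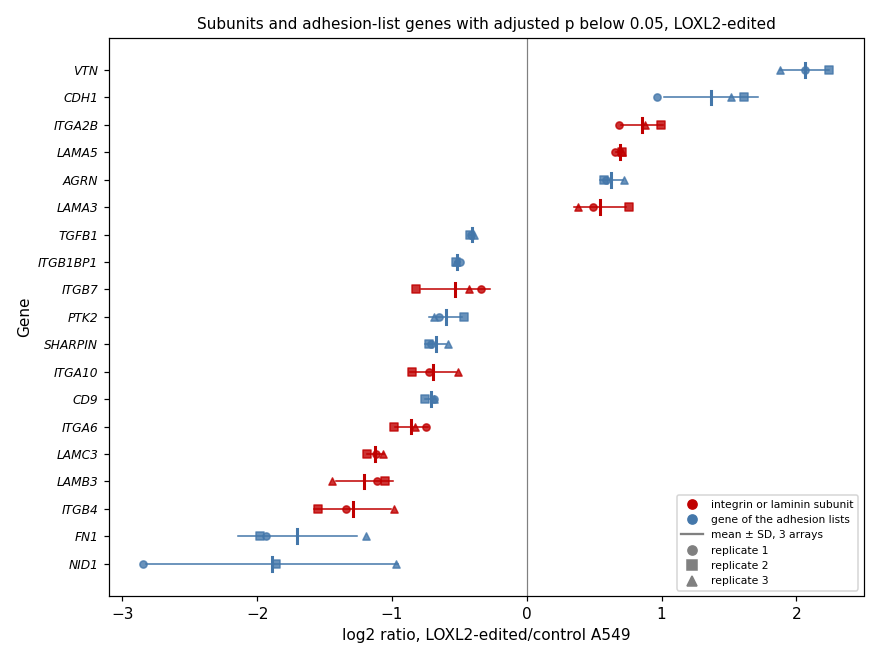
Log2 ratios of *LOXL2*-edited over control A549 (horizontal axis) for the 9 members and 10 genes of the adhesion lists with an adjusted p below 0.05. Points are the 3 arrays, the vertical bar is the mean and the horizontal line is ± SD (n = 3). *NID1*, *FN1*, *ITGB4*, *LAMB3* and *LAMC3* have means below -1, and *VTN* and *CDH1* have means above 1.

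In the siDONSON group, 0 of 21 adaptors and kinases, 1 of 7 hemidesmosome components and tetraspanins, 0 of 7 basement membrane proteins and 2 of 9 ligands passed. At an unadjusted p below 0.05, these lists held 3, 2, 0 and 4 genes in the same order, and 24.8% of all genes passed. *DST*, which links hemidesmosomes to keratin filaments, rose by 1.20 ± 0.71 (SD, n = 3, adjusted p = 0.0333), with values from 0.65 to 2.00. It was dim in SBC-3, with a control level of -2.95 over 4 probes. A share of 0.75 of these probes was not above background in the control on any SBC-3 array. The control passed background on 2 of the 3 arrays only. *EMILIN1*, a matrix glycoprotein bound by α4 and α9 integrins, fell by 0.72 ± 0.10 (adjusted p = 0.0155), and *TGFB1*, whose latent form is bound by αV integrins, rose by 0.52 ± 0.21 (adjusted p = 0.0344). *TGFB1* was thus called in both groups, higher with siDONSON and lower in edited A549. After *miR-150-3p* transfection, 0 genes of the 4 lists were called by limma at the adjusted threshold, among 24, 7, 5 and 8 tested in the order above. At an unadjusted p below 0.05 these lists held 5, 0, 1 and 3 genes, beside 28.2% of all genes.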

How the data were processed

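RNA of 8 samples was measured on 2-color arrays. Scanner files made by the authors with Feature Extraction (version 12.1.1.1) were deposited, which hold intensity values of both channels, the log10 ratio (red over green) and its error. In these deposited files the processed intensity had been background-subtracted, detrended and dye-normalized. A deposited table of the series holds the same log10 ratios. The log2 ratio of the processed intensities was calculated here, control spots (all but 60901 of 62976) and 81 to 133 outlier spots were left out, and 0 spots were saturated. Spots of a probe and then the counted probes of a gene were averaged. Probes were named through RefSeq accessions, which named 31104 of 58201 probes. The number of arrays limits the precision.

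The limma package (version 3.58.1, R 4.3.3) fitted 3 groups to 8 arrays across all named genes, and tested each group's mean against 0, with p-values adjusted by Benjamini-Hochberg (threshold 0.05) over the genes counted on every array of that group. The fit was tested on simulated data. Motifs, counts and figures were made in Python 3.11.15.

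The rule for the members uses gene names alone, but the choice of this gene family, of the adhesion lists and of the markers was made with earlier results of these data known. Some markers are not reported here. Named in full were members called in any group, members past a log2 ratio of 1 on the EBC-1 or SK-MES-1 array with both channels above background, members with at least a 16-fold range of control levels, up to 5 lowest and 5 highest called list genes per group, and the targeted genes.

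Alternatives were normexp with loess, median centring, other filters and probe rules, other references and spreads, quantile normalization of control levels, and leaving out each array. As all arrays were on the same slide, no slide block could be fitted.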

Additional observations from a re-analysis of the deposited data

Results flagged for a closer look

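*LAMA4*, the laminin α4 chain, had a log2 ratio of 0.63 after *miR-150-3p* in EBC-1 and of -0.28 in SK-MES-1. The values have opposite signs and both lie past the 95% limits of the scanner software's error, and the difference between the lines was not tested. In EBC-1 the mean includes a probe with a log2 ratio of 1.98 that was not well above background in the control, and the other 3 probes had 0.17 to 0.20. In SK-MES-1 all 4 probes were below 0, at -0.37 to -0.09.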

How the results depend on the processing

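The number of members called in the *miR-150-3p* group was 3 with normexp and loess (*ITGA6*, *LAMA5* and *LAMB2*), 2 with both channels above background, and 3 with limma's moderation over the genes tested in the group, an alternative chosen after seeing the data. Leaving out EBC-1 or SK-MES-1 gave 0 to 4. In the siDONSON group it was 5 with no filter on dim probes and 0 with the spread of the group alone, and 0 to 3 with 1 array left out (0 without siDONSON-3, 1 without siDONSON-1). In the *LOXL2*-edited group it was 4 with the mean of the other 2 groups as reference, 14 with the spread of the group alone, and 2 to 4 with 1 array left out. The members past a log2 ratio of 1 were 0 on the EBC-1 array with normexp and loess, and 2 on the SK-MES-1 array with no filter on dim probes. The members that differed at least 4-fold between lines were 9 with normexp on the green channel (9.1% of all genes) and 18 to 19 with 1 array left out. An offset of 50 shrinks the ratios of dim genes by construction. Elsewhere the cause was not tested. No called member changed its sign in its group under the alternatives run. Of members not called, 11, 11 and 5 did so under at least 1 alternative in the *miR-150-3p*, siDONSON and *LOXL2*-edited groups, among them *ITGB1* in the siDONSON group (0.25 without siDONSON-2). *LAMB3* and *ITGA6* in the *LOXL2*-edited group passed under all 9 alternatives and all 3 arrays left out.

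Over all genes, 369, 800 and 2048 were called in the *miR-150-3p*, siDONSON and *LOXL2*-edited groups. With normexp and loess these counts were 1657, 1606 and 3226, with no filter on dim probes 198, 2897 and 5375, with the mean of the other 2 groups as reference 81, 382 and 653, and with the spread of the group alone 0, 9 and 5629. Both channels above background gave 795 for *miR-150-3p*, and moderation over the genes tested gave 765. With 1 array left out they were 1 to 2493, 41 to 787 and 363 to 466.

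Naming by gene name was not run, as the files used here hold no such column, and normexp used median signals. No paired analysis was possible because the replicate numbers name different siRNAs or edited samples in different cell lines.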
